A study of Saccharomyces cerevisiae with 8 samples.

Results

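Among the transcripts measured here in yeast were those of the mitochondrial genome, and 10 of its genes are described: COX1, COB and ATP6, which encode proteins of the respiratory chain and of the ATP synthase, and 7 reading frames that lie in introns of COX1 (AI1, AI2, AI3, AI4, AI5_ALPHA and AI5_BETA) or of COB (BI2). They were taken by gene symbol from the annotation of the array, whatever their values, and make up 10 of the 6226 genes tested. The RefSeq table of the R64 assembly lists 19 protein-coding genes of mitochondrial DNA, of which 17 had a named probe, and the other 7 (COX2, COX3, OLI1, VAR1, BI3, BI4 and SCEI) are given for comparison. Each of the 10 genes was read by 1 probe.

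All samples were BY4741 (mating type a, his3Δ1, leu2Δ0, met15Δ0, ura3Δ0), a laboratory strain of Saccharomyces cerevisiae, and all carried the empty pFL38H plasmid with its HIS3 marker. AhPDF1.1b yeast also expressed AhPDF1.1b, a defensin of the plant Arabidopsis halleri, from the plasmid pYX212 under the constitutive triose phosphate isomerase promoter, and WT yeast did not. Both were grown as colonies on solid glucose medium with 20 mmol/L ZnSO4, an excess of zinc, or without it (control medium), and colonies of all conditions were collected at the same size. The 4 conditions were AhPDF1.1b yeast with zinc, WT yeast with zinc, AhPDF1.1b yeast on control medium and WT yeast on control medium, with 2 biological repetitions each, and total RNA was hybridised to 8 arrays with a single dye. The labels do not name an empty pYX212 in WT yeast, and the URA3 gene of that plasmid gave log2 signals of 14.16 to 15.64 over the 8 arrays.

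Yeast mitochondrial DNA encodes a small set of proteins: 3 subunits of cytochrome c oxidase (COX1, COX2 and COX3), cytochrome b of the bc1 complex (COB), 3 subunits of the membrane part of the ATP synthase (ATP6, ATP8 and OLI1) and the ribosomal protein VAR1. All other subunits of these complexes are encoded in the nucleus, as are the proteins that transcribe, splice, stabilise and translate the mitochondrial mRNAs. COX1 and COB are interrupted by mobile introns. Several of the introns contain a reading frame in phase with the upstream exons. Its product is either a maturase, which helps to splice its own intron, or a DNA endonuclease, which cuts genes that lack the intron. AI1 and AI2 are group II introns that encode a reverse transcriptase with maturase activity, AI3, AI4 and AI5_ALPHA encode homing endonucleases, BI2 encodes a maturase, and the function of AI5_BETA is uncertain. Mitochondrial mRNAs of yeast have no poly(A) tail, and how the labelling reaction was primed was not stated in the labels.

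In the annotation, 6 of the 7 intron frames lie inside COX1, 5 of them with the same start as COX1, and BI2 lies inside COB with the same start as COB. A probe for an intron frame may therefore also read the mature mRNA of its host gene if it falls in a shared exon. Probe positions and sequences were not analysed here, and this was not tested.

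Values are log2 signals that the authors had normalized between arrays. A signal floor was taken from LEU2 and MET17, which are deleted in this strain, as the higher of both probes on each array. It lay between 5.57 and 5.79. By this measure 3 of the 10 genes were near the floor, that is, at most 1 log2 unit above it on average. AI3 was at or under the floor on 3 of the 8 arrays and AI4 on 5 of them, while BI2 was above it on every array, by 0.66 log2 units on average. The mean distance from the floor was 1.44 for AI5_BETA, 2.35 for AI1, 4.11 for COX1, 4.99 for AI2, 5.11 for AI5_ALPHA, 5.77 for COB and 6.25 for ATP6 (log2 units). These distances describe each probe against background and give no order of transcript levels between genes. OLI1 (ATP9) had the highest value of every array, with log2 signals of 15.56 to 15.90. It shared that value with other genes only in WT yeast with zinc, where 6 genes of repetition 1 and 3 genes of repetition 2 stood at the same maximum, so no change of OLI1 could be read.

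Over all genes, log2 signals of repetitions correlated at 0.996 to 0.998 in each condition, with n = 2 in every condition. The arrays lay on 2 slides, which the labels number. Slide 1 held both arrays of AhPDF1.1b yeast with zinc and 1 array of each control condition, and slide 2 held both arrays of WT yeast with zinc and the other control arrays. Thus AhPDF1.1b and WT yeast could not be compared under zinc within one slide, and slide and AhPDF1.1b could be separated there only through the control arrays. A term for slide passed for 0 genes in limma (104 at an unadjusted p under 0.05). Among the 10 genes, 3 were higher on all 4 arrays of slide 1 than on all 4 arrays of slide 2 (COB, AI2 and AI5_BETA), as were 1.54% of all genes. On control medium the slide 2 array minus the slide 1 array was -0.34 log2 units for COB in AhPDF1.1b yeast and -0.23 in WT yeast, and for AI5_BETA it was -0.29 in AhPDF1.1b yeast and -0.30 in WT yeast. Values with slide as a block in the fit are given beside the results below. Mating type a markers were clearly above the floor, with mean log2 signals of 9.75 for MFA1, 9.05 for MFA2 and 8.98 for STE2. Of the mating type alpha markers, MF(ALPHA)2 was near the floor with 5.66 to 5.91, STE3 had 6.65 to 7.19 and MF(ALPHA)1 had 5.84 to 8.41. With zinc MFA1 was at -2.50 in AhPDF1.1b yeast and at -2.52 in WT yeast, and MF(ALPHA)1 at -1.34 in AhPDF1.1b yeast and at -2.46 in WT yeast (log2 fold changes). The yeasts also differed in these markers: AhPDF1.1b yeast had higher STE2 than WT yeast on control medium (1.66, adjusted p = 3.4e-05) and with zinc (0.99, adjusted p = 2.8e-05), while MF(ALPHA)1 was lower on control medium (-0.75, adjusted p = 3e-04) and higher with zinc (0.38, adjusted p = 0.0016). MFA2 was lower in AhPDF1.1b yeast than in WT yeast under zinc (-0.51, adjusted p = 0.0068). The part of these genes in the results below was not tested.

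**Figure D1:**
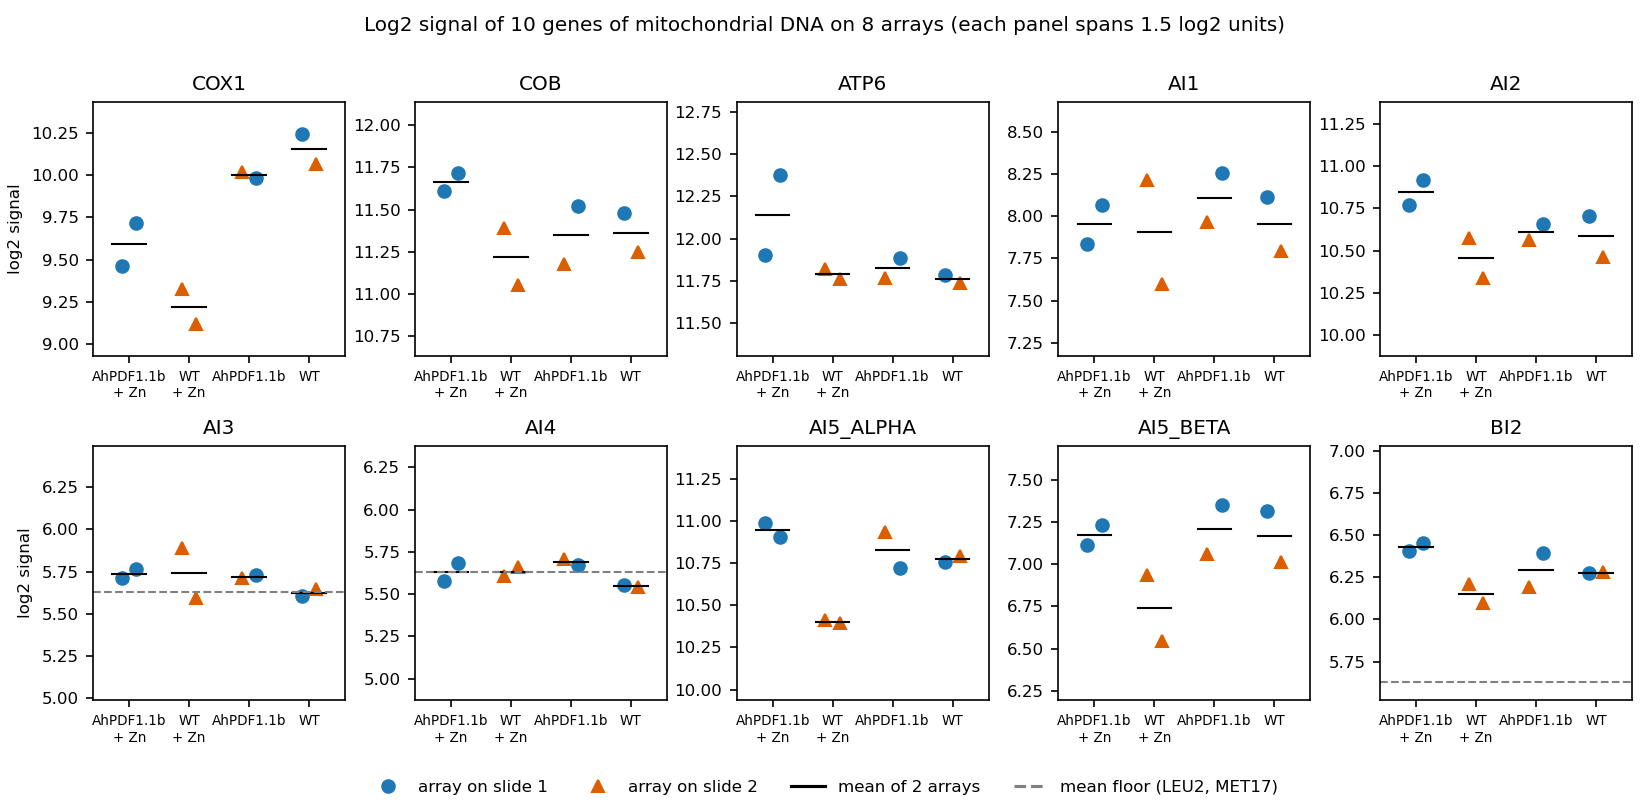
Log2 signal (vertical axes) of the 10 genes on each of the 8 arrays, by condition. Circles are arrays of slide 1, triangles arrays of slide 2, black lines the mean of 2 arrays and the dashed line the mean floor, 5.63. COX1 lay between 9.12 and 9.72 on the 4 zinc arrays, below all 4 control arrays, whereas AI3 and AI4 stayed near the floor in every condition.

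The first question was how an excess of zinc changed the mitochondrial transcripts in yeast that express the defensin. COX1, the largest and catalytic subunit of cytochrome c oxidase, was lower with zinc. Its log2 signal was 9.46 and 9.72 in AhPDF1.1b yeast with zinc, against 10.02 and 9.98 in AhPDF1.1b yeast on control medium. The ranges did not overlap, and the difference was larger than the spread between repetitions (log2 fold change -0.41, SE 0.10, 95% interval -0.64 to -0.18, adjusted p = 0.0079). With slide as a block it was -0.45 (adjusted p = 0.016), and the arrays of slide 1 alone differed by -0.39. Without repetition 1 of AhPDF1.1b yeast with zinc it was -0.28 (adjusted p = 0.077).

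COX1 was the only one of the 10 genes that passed the threshold in this comparison, where 45.8% of all genes passed and 24.0% were lower. The 9 others had log2 fold changes from -0.16 (AI1) to 0.31 (COB and ATP6). ATP6, the proton channel subunit of the ATP synthase, had 11.90 and 12.37 in AhPDF1.1b yeast with zinc, against 11.76 and 11.89 in AhPDF1.1b yeast on control medium. COB had 11.61 and 11.72 with zinc, against 11.18 and 11.52 on control medium. In both genes the 2 zinc arrays were the higher ones, without passing the test (adjusted p = 0.063 for ATP6 and 0.080 for COB). Their differences on slide 1 alone were 0.25 for ATP6 and 0.14 for COB. ATP6 passed without repetition 1 of AhPDF1.1b yeast with zinc (0.55, adjusted p = 0.0013), COB (0.48, adjusted p = 0.027) and BI2 (0.24, adjusted p = 0.043) passed without repetition 2 of AhPDF1.1b yeast on control medium, and AI5_ALPHA (0.23, adjusted p = 0.046) without its repetition 1. Since the COX1 mRNA is spliced from the same precursor that holds AI2 and AI5_ALPHA, their values stand beside it: 0.23 (adjusted p = 0.091) for AI2 and 0.12 (adjusted p = 0.26) for AI5_ALPHA. The differences between probes were not tested.

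In WT yeast COX1 was lower with zinc too. It had 9.32 and 9.12 in WT yeast with zinc, against 10.24 and 10.06 in WT yeast on control medium, a 1.91-fold lower signal without overlap (log2 fold change -0.93, SE 0.10, 95% interval -1.16 to -0.70, adjusted p = 2.1e-05). The difference was -0.89 with slide as a block (adjusted p = 0.00019) and -0.84 within slide 2, and it passed the threshold when any 1 array was left out. In bulk RNA, fewer cells with the transcript and less of it per cell cannot be told apart.

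AI5_ALPHA was also lower in WT yeast with zinc, at 10.41 and 10.39, against 10.75 and 10.79 in WT yeast on control medium. These repetitions lay close together (SD 0.01 with zinc and 0.03 on control medium), and the fold change of -0.37 on the log2 scale (SE 0.08) passed the test (adjusted p = 0.0023), as it did with slide as a block (-0.43, adjusted p = 0.0020). AI5_BETA had 6.94 and 6.55 with zinc, against 7.31 and 7.01 on control medium. Its log2 fold change of -0.42 (SE 0.14, adjusted p = 0.025) no longer passed with slide as a block (-0.28, adjusted p = 0.10), without repetition 1 of the WT control (-0.27, adjusted p = 0.19) or without repetition 2 of WT yeast with zinc (-0.23, adjusted p = 0.23).

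Thus 3 of the 10 genes were lower and 0 higher with zinc in WT yeast, where 59.3% of all genes passed, 31.5% as lower and 27.8% as higher. The share of called genes among the 10 was below that of all genes, but 3 of the 10 (AI3, AI4 and BI2) were near the floor. The median log2 fold change of the 10 genes was -0.13, beside -0.03 over all genes. AI2, another intron frame of the COX1 precursor, had 10.58 and 10.34 with zinc, against 10.71 and 10.46 on control medium. The conditions overlapped, and the 95% interval of the AI2 difference was -0.36 to 0.10. AI1 overlapped too, with 8.21 and 7.60 with zinc and 8.11 and 7.79 on control medium. COB had 11.39 and 11.05 with zinc, against 11.48 and 11.25 on control medium (log2 fold change -0.14, adjusted p = 0.39, and 0.00 with slide as a block). ATP6 had 11.82 and 11.76 with zinc, against 11.79 and 11.74 on control medium (0.03, 95% interval -0.25 to 0.30). The values of these 4 genes thus left room for changes of either sign smaller than that of COX1. BI2 was at -0.12 (adjusted p = 0.21), and AI3 and AI4 stayed near the floor. AI3 passed as higher without repetition 2 of WT yeast with zinc (0.27, adjusted p = 0.022), between signals of 5.59 and 5.89.

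The other mitochondrial genes with a probe gave a similar mix. COX3 was lower in WT yeast with zinc (log2 fold change -0.64, SE 0.15, adjusted p = 0.0039), with 8.30 and 8.05 against 8.93 and 8.68 in WT yeast on control medium. COX2 was lower with zinc in both yeasts. In AhPDF1.1b yeast it had 8.33 and 8.61 with zinc, against 8.85 and 8.98 on control medium (-0.44, SE 0.10, adjusted p = 0.0054). In WT yeast it had 8.97 and 8.93 with zinc, against 9.38 and 9.17 on control medium (-0.32, SE 0.10, adjusted p = 0.020, and 0.090 with slide as a block). VAR1 did not pass in any comparison, and BI3, BI4 and SCEI, the endonuclease of the omega intron, were near the floor. All 3 mitochondrial subunits of cytochrome c oxidase were therefore lower with zinc in WT yeast, and COX1 and COX2 in AhPDF1.1b yeast, where COX3 was at -0.23 (adjusted p = 0.24).

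**Figure D2:**
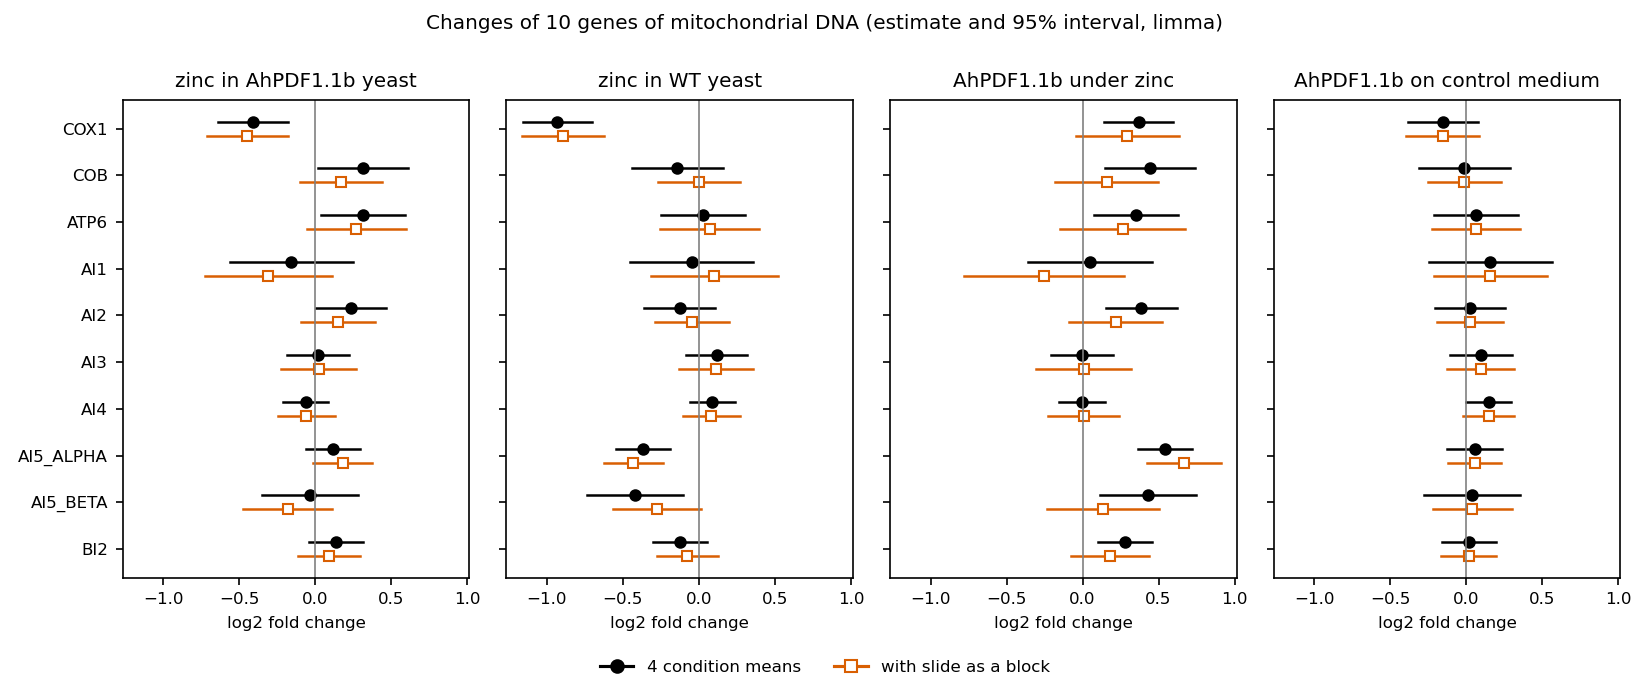
Log2 fold changes of the 10 genes (horizontal axes) in 4 comparisons, with 95% intervals from limma. Black circles are from the fit of the 4 condition means and orange squares from the fit with slide as a block. COX1 lay below 0 under zinc in both yeasts, and for AhPDF1.1b under zinc only AI5_ALPHA kept an adjusted p under 0.05 with slide as a block.

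On the same zinc medium, AhPDF1.1b yeast had higher signals than WT yeast for 7 of the 10 genes, and lower ones for 0. Over all genes 48.8% passed in this comparison, 26.8% as higher and 22.0% as lower. The median log2 fold change of the 10 genes was 0.36, beside 0.03 over all genes. The clearest case was AI5_ALPHA, with 10.99 and 10.90 in AhPDF1.1b yeast with zinc, against 10.41 and 10.39 in WT yeast with zinc. Its fold change of 0.54 on the log2 scale (SE 0.08, adjusted p = 0.00032) was 0.67 with slide as a block (adjusted p = 0.0020), and it passed the threshold when any 1 array was left out.

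COX1 was 9.46 and 9.72 in AhPDF1.1b yeast with zinc, against 9.32 and 9.12 in WT yeast with zinc (log2 fold change 0.37, SE 0.10, adjusted p = 0.013). COB was 11.61 and 11.72 in AhPDF1.1b yeast with zinc, against 11.39 and 11.05 in WT yeast with zinc (0.44, SE 0.13, adjusted p = 0.019). ATP6 was 11.90 and 12.37 in AhPDF1.1b yeast with zinc, against 11.82 and 11.76 in WT yeast with zinc (0.35, SE 0.12, adjusted p = 0.039). In none of the 3 genes did the conditions overlap, but how often this held over all genes was not counted. The conditions did not overlap for the deleted floor gene MET17 either (-0.05, adjusted p = 0.69 in limma). The remaining ones that passed were AI2 (0.39, adjusted p = 0.011), BI2 (0.28, adjusted p = 0.015) and AI5_BETA (0.43, adjusted p = 0.029). Of these, BI2 was near the floor, on average 0.66 log2 units above it. AI1 was at 0.05 (adjusted p = 0.85), and AI3 and AI4 were near the floor.

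Of these 7 calls, 6 were lost with slide as a block, where 1 of the 10 genes passed as higher, beside 14.3% of all genes. The block values and their adjusted p-values were 0.29 and 0.18 for COX1, 0.16 and 0.49 for COB, 0.26 and 0.33 for ATP6. They were 0.22 and 0.28 for AI2, 0.18 and 0.28 for BI2, and 0.14 and 0.59 for AI5_BETA. The same 6 calls were lost without repetition 2 of AhPDF1.1b yeast with zinc (adjusted p of 0.077 to 0.36) and without repetition 2 of WT yeast with zinc (adjusted p of 0.10 to 0.24). For ATP6 the difference was 0.11 without repetition 2 of AhPDF1.1b yeast with zinc, and its call was also lost without repetition 1 of WT yeast with zinc (adjusted p = 0.092) or without either array of AhPDF1.1b yeast on control medium (adjusted p = 0.054 for each). AI5_BETA lost its call without repetition 1 of AhPDF1.1b yeast with zinc (adjusted p = 0.053). Under zinc AhPDF1.1b and slide coincide for all 10 genes, AI5_ALPHA included, and the block fit separates them only through the control arrays. On control medium the slide 2 array minus the slide 1 array of AI5_ALPHA was 0.21 in AhPDF1.1b yeast and 0.04 in WT yeast.

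COX2, unlike COX1, was lower in AhPDF1.1b yeast with zinc, at 8.33 and 8.61, than in WT yeast with zinc, at 8.97 and 8.93 (log2 fold change -0.48, SE 0.10, adjusted p = 0.0033, and -0.66 with slide as a block, adjusted p = 0.0066). COX3 was at 0.31 (adjusted p = 0.11), and at 0.06 with slide as a block. The differences between these subunits were not tested.

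Without added zinc, no change of the 10 transcripts with AhPDF1.1b was detected. In limma 0 of the 10 genes passed the adjusted threshold, which 5.65% of all genes passed. At an unadjusted p under 0.05 it was 0 of the 10 too, and the share of all genes at that limit is not given here. COX1 had 10.02 and 9.98 in AhPDF1.1b yeast on control medium, against 10.24 and 10.06 in WT yeast on control medium (log2 fold change -0.15, 95% interval -0.38 to 0.07, adjusted p = 0.46). Within slides, the COX1 difference was -0.26 on slide 1 and -0.05 on slide 2. COB was at -0.01 (95% interval -0.31 to 0.28), ATP6 at 0.06 (-0.21 to 0.34) and AI5_ALPHA at 0.05 (-0.12 to 0.23). AI1 had the widest interval, -0.25 to 0.56. Differences within these intervals are not excluded at n = 2. COX2 was at -0.36 (adjusted p = 0.075), with -0.40 within slide 1 and -0.32 within slide 2.

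Whether zinc acted differently in the yeasts was tested as an interaction, in which a positive value means a higher zinc effect in AhPDF1.1b yeast than in WT yeast. For COX1 the interaction was 0.52 (SE 0.15, 95% interval 0.20 to 0.85, adjusted p = 0.019), so that zinc lowered COX1 less in AhPDF1.1b yeast (-0.41) than in WT yeast (-0.93). For AI5_ALPHA it was 0.49 (SE 0.11, adjusted p = 0.0078), from zinc effects of 0.12 in AhPDF1.1b yeast and -0.37 in WT yeast. These were 2 of the 10 genes, where 33.6% of all genes passed, 17.7% with a higher and 16.0% with a lower zinc effect in AhPDF1.1b yeast. With slide as a block 1 of the 10 genes had a higher interaction, beside 9.64% of all genes: AI5_ALPHA passed (0.61, adjusted p = 0.012), but COX1 did not (0.45, adjusted p = 0.12). COX1 also missed the threshold without repetition 1 of the WT control (adjusted p = 0.072), repetition 2 of AhPDF1.1b yeast on control medium (0.053), repetition 2 of AhPDF1.1b yeast with zinc (0.068) or repetition 2 of WT yeast with zinc (0.073), with values of 0.40 to 0.51. The interactions of COB (0.45, adjusted p = 0.089), AI2 (0.36, adjusted p = 0.083), BI2 (0.26, adjusted p = 0.10), AI5_BETA (0.39, adjusted p = 0.16) and ATP6 (0.29, adjusted p = 0.24) did not pass. Each of these 5 passed when a particular array was left out: COB without repetition 2 of AhPDF1.1b yeast on control medium or repetition 1 of WT yeast with zinc (adjusted p = 0.035 for each), BI2 without repetition 2 of AhPDF1.1b yeast on control medium (0.029), AI2 without repetition 1 of WT yeast with zinc (0.041) or repetition 2 of the WT control (0.039), AI5_BETA without repetition 1 of WT yeast with zinc (0.047), and ATP6 without repetition 1 of AhPDF1.1b yeast with zinc (0.0087).

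Zinc together with AhPDF1.1b was last set against WT yeast on control medium, a comparison that shares its arrays with those above. COX1 was lower here (log2 fold change -0.56, SE 0.10, adjusted p = 0.00098), and at -0.60 with slide as a block (adjusted p = 0.0029). ATP6 was higher (0.38, SE 0.12, adjusted p = 0.027), but with slide as a block (0.33) it did not pass (adjusted p = 0.090). ATP6 also missed the threshold without repetition 2 of AhPDF1.1b yeast with zinc (0.14, adjusted p = 0.24) or without repetition 1 (adjusted p = 0.065) or 2 (adjusted p = 0.096) of the WT control. In this comparison AI2 and AI5_ALPHA passed as higher in some fits without 1 array, AI2 at up to 0.38 (adjusted p = 0.025) and AI5_ALPHA at 0.17 (adjusted p = 0.043). AI5_ALPHA also passed as higher with slide as a block (0.24, adjusted p = 0.049). On slide 1 alone the differences were -0.65 for COX1 and 0.35 for ATP6. Over all genes 51.6% passed, 24.6% as higher and 27.1% as lower. Of the other genes of mitochondrial DNA, COX2 was lower (-0.80, SE 0.10, adjusted p = 1e-04). COX3 was at -0.32 (adjusted p = 0.098), and passed as lower with slide as a block (-0.45, adjusted p = 0.036).

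**Figure D3:**
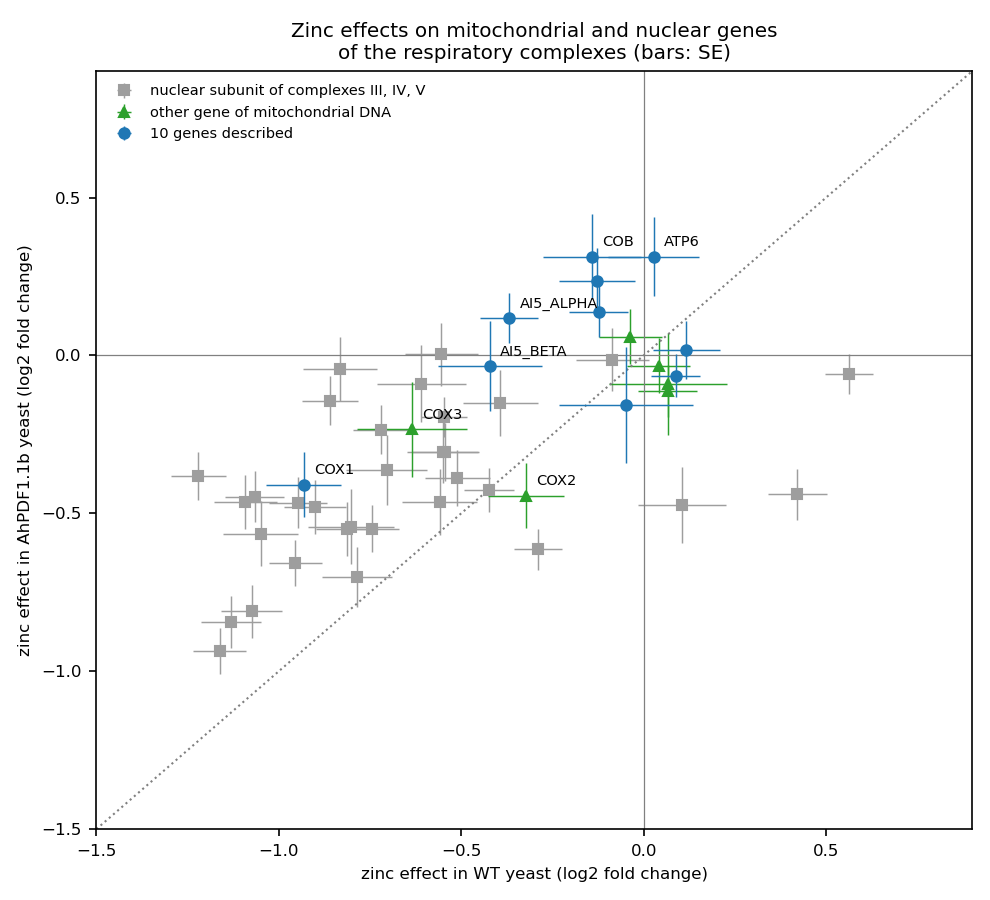
Zinc effect in AhPDF1.1b yeast (vertical axis) against zinc effect in WT yeast (horizontal axis), both as log2 fold changes with bars of 1 SE, for the 10 genes (blue circles), other genes of mitochondrial DNA (green triangles) and nuclear subunits of the bc1 complex, cytochrome c oxidase and ATP synthase (grey squares). OLI1 is not drawn. On the dotted line both effects are equal. COX1, at -0.93 and -0.41, lay among the nuclear subunits, and COB and ATP6 lay near or above 0 on both axes, with COB at -0.14 in WT yeast.

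Most nuclear genes for subunits of the same complexes were lower with zinc. Among all genes 24.0% were lower with zinc in AhPDF1.1b yeast and 31.5% in WT yeast. Of 32 nuclear subunits, 0 were higher and 25 lower with zinc in AhPDF1.1b yeast (median log2 fold change -0.44), and 2 were higher and 28 lower in WT yeast (median -0.73). In WT yeast with zinc, lower ones included COX8 (-1.13), COX4 (-0.95) and COX6 (-1.07) of cytochrome c oxidase, QCR7 (-1.16) and CYT1 (-1.09), the cytochrome c1 of the bc1 complex, and ATP7 (-1.22) and ATP5 (-1.07) of the ATP synthase. The 2 higher ones were COX5B (0.56), the isoform of COX5A used when oxygen is low, and COX7 (0.42). COX5B and COX7 were named after their values were seen. In AhPDF1.1b yeast with zinc, COX8 was at -0.84, QCR7 at -0.93 and ATP3 at -0.70. COX1 was thus lower with zinc like 7 of 9 nuclear subunits of cytochrome c oxidase in each yeast. COB and ATP6 did not pass in either yeast, while 7 of 9 nuclear bc1 subunits were lower in AhPDF1.1b yeast and 8 of 9 in WT yeast, and 11 of 14 ATP synthase subunits in AhPDF1.1b yeast and 13 of 14 in WT yeast. Whether the mitochondrial and nuclear subunits differed was not tested.

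With AhPDF1.1b under zinc, 27 of the 32 nuclear subunits were higher and 2 lower than in WT yeast with zinc (median 0.40). Among all genes 26.8% were higher and 22.0% lower. With slide as a block 20 of the 32 were higher and 2 lower, beside 889 and 866 of all 6226 genes. ATP7 (0.94) and ATP1 (0.92) of the ATP synthase and COR1 (0.79) and CYT1 (0.75) of the bc1 complex were among those higher, and COX5B (-0.55) and COX7 (-0.61) were the lower ones. On control medium 2 of the 32 passed, near the 5.65% share of all genes. Both were higher in AhPDF1.1b yeast: QCR9 (0.35) and ATP15 (0.33). With slide as a block 1 of them, ATP15, passed (adjusted p = 0.041, and 0.052 for QCR9). The interaction was higher for 13 and lower for 4, beside 17.7% and 16.0% of all genes. With slide as a block it was higher for 5 and lower for 3, beside 600 and 658 of all 6226 genes.

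Most of the nuclear genes whose products act on mitochondrial mRNAs did not pass with zinc. Of 33 measured ones, 6 were higher and 5 lower with zinc in AhPDF1.1b yeast (median log2 fold change -0.00), and 9 higher and 6 lower in WT yeast (median -0.04). The shares that passed were below those of all genes, 45.8% in AhPDF1.1b yeast and 59.3% in WT yeast. With slide as a block, 4 were higher and 5 lower in AhPDF1.1b yeast, and 8 higher and 6 lower in WT yeast. Of 9 measured splicing factors of COX1 and COB introns, MRS1, which acts on introns of both genes, was lower with zinc in AhPDF1.1b yeast (-0.55, adjusted p = 0.00042) and in WT yeast (-0.70, adjusted p = 3.8e-05). MTF2 was lower with zinc in AhPDF1.1b yeast (-0.22), and CBP2, which splices the last COB intron, was higher in WT yeast (0.23). Under zinc, MSS18 (0.26) and the leucyl-tRNA synthetase NAM2 (0.22) were higher and MNE1 (-0.29) lower in AhPDF1.1b yeast than in WT yeast, and none of the 3 passed with slide as a block.

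Of 4 measured factors for COX1 translation, the activator PET309 was higher with zinc in AhPDF1.1b yeast (0.21, adjusted p = 0.027), but did not pass with slide as a block (0.19, adjusted p = 0.095). COX14, which binds newly made Cox1 protein, was higher with zinc in WT yeast (0.58, adjusted p = 0.0011) and lower in AhPDF1.1b yeast than in WT yeast under zinc (-0.68, adjusted p = 6e-04). MAM33 was lower with zinc in WT yeast (-0.28) and higher in AhPDF1.1b yeast than in WT yeast under zinc (0.39).

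Of 7 factors for the COB mRNA and its product, the assembly factor CBP4 was lower with zinc in AhPDF1.1b yeast (-0.74) and in WT yeast (-0.77), and CBT1, which acts in the 5′ processing of the COB mRNA, was higher in AhPDF1.1b yeast (0.49) and in WT yeast (0.36). The translational activators CBS1 (-0.38) and CBS2 (-0.24) were lower with zinc in WT yeast. Under zinc 1 of the 7, CBP1, was lower in AhPDF1.1b yeast than in WT yeast (-0.17, adjusted p = 0.048), and it did not pass with slide as a block (-0.13, adjusted p = 0.37). Of 5 measured factors for the ATP6 and ATP9 mRNAs, ATP22, the activator of ATP6 translation, was higher with zinc in AhPDF1.1b yeast (0.50) and in WT yeast (0.53). AEP1, which acts on the ATP9 mRNA, was higher with zinc in WT yeast (0.61) and lower in AhPDF1.1b yeast than in WT yeast under zinc (-0.53). NCA2 was lower with zinc in WT yeast (-0.84), and higher in AhPDF1.1b yeast than in WT yeast under zinc (0.43). On control medium NCA3 was higher (0.51) and NCA2 lower (-0.34, adjusted p = 0.049) in AhPDF1.1b yeast, and NCA2 did not pass with slide as a block (adjusted p = 0.055).

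Of the 8 genes among these 33 for transcription and RNA turnover in mitochondria, zinc left 3 higher and 1 lower in AhPDF1.1b yeast, and 3 higher and 0 lower in WT yeast. These counts are near or below the shares of all genes given above, and with slide as a block 2 were higher and 1 lower in AhPDF1.1b yeast. RPO41, the mitochondrial RNA polymerase, was higher with zinc in AhPDF1.1b yeast (0.31, adjusted p = 0.0048), where its transcription factor MTF1 was lower (-0.27). DSS1, a subunit of the exoribonuclease that degrades mitochondrial RNA, was higher with zinc in WT yeast (0.44), and RPM2 was higher in AhPDF1.1b yeast (0.33) and in WT yeast (0.45). Under zinc, MTF1 (-0.52, adjusted p = 0.00011), DSS1 (-0.37) and RPM2 (-0.21) were lower in AhPDF1.1b yeast than in WT yeast. MTF1 and DSS1 passed with slide as a block, and RPM2 did not (adjusted p = 0.16).

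Of 11 genes for the maintenance of mitochondrial DNA, 2 were higher and 4 lower with zinc in AhPDF1.1b yeast, and 3 higher and 3 lower in WT yeast, near the 45.8% of all genes that passed in AhPDF1.1b yeast and the 59.3% in WT yeast. With slide as a block they were 2 and 3 in AhPDF1.1b yeast, and 2 and 4 in WT yeast. RIM1, the protein that binds single-stranded mitochondrial DNA, was lower with zinc, at -0.75 in AhPDF1.1b yeast and at -1.31 in WT yeast (adjusted p = 9.8e-07). ABF2, which packages mitochondrial DNA, was at -0.39 in AhPDF1.1b yeast and at -0.89 in WT yeast, and MHR1 was at -0.45 in AhPDF1.1b yeast and at -0.79 in WT yeast. DIN7, a mitochondrial nuclease, was higher with zinc in AhPDF1.1b yeast (0.42). The amount of mitochondrial DNA was not measured, and the part of these genes in the levels of the mitochondrial transcripts was not tested. The retrograde response, through which the nucleus responds to the state of mitochondria, was covered by 10 genes. With zinc 1 of them was higher and 4 lower in AhPDF1.1b yeast, and 3 were higher and 6 lower in WT yeast. Among all genes 45.8% passed in AhPDF1.1b yeast and 59.3% in WT yeast. The 1 higher retrograde gene in AhPDF1.1b yeast did not pass with slide as a block. ACO1, the aconitase of the citric acid cycle, was at -1.13 in AhPDF1.1b yeast and at -1.48 in WT yeast. DLD3 was at -1.18 in AhPDF1.1b yeast and at -0.31 in WT yeast. RTG3 was lower with zinc in AhPDF1.1b yeast (-0.53) and higher in WT yeast (0.52).

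Correlations among the 10 genes over the 8 arrays varied widely. COB correlated with AI2 (Pearson's r = 0.952) and with BI2 (0.925), and COX1 with AI5_BETA (0.743), AI5_ALPHA (0.553), COB (0.178) and AI2 (0.256). COB and AI2 had in common that slide 1 was above slide 2. These values describe 8 arrays in 4 conditions that share slides and normalization. The genes most like COX1 over the 8 arrays were RPL22A (r = 0.993), which encodes a protein of the cytosolic ribosome, HYP2 (0.991), the translation factor eIF5A, and USO1 (0.991), a tethering factor for vesicle transport to the Golgi. Those most like COB were RPL37A (0.965), CAF40 (0.964) and RPL34B (0.962), which all had the 4 arrays of slide 1 above those of slide 2. Those most like ATP6 were DIT2 (0.966), ARF2 (0.955) and TIM12 (0.929). ATP6 itself had 12.37 in repetition 2 of AhPDF1.1b yeast with zinc, and 11.74 to 11.90 on the other arrays. DIT2 had a mean log2 signal of 6.38, against a mean floor of 5.63. TIM12 had the arrays of slide 1 above those of slide 2.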

How the data were processed

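The paper's text does not describe the arrays, and their conditions and slides were taken from the sample labels. The values deposited by the authors are log2 signals, 1 per probe and array, without pooling of repetitions. R 2.14.2 and limma are named in the submitters' processing notes. The background correction, the normalization method and filters were not given in the sources used here. Of 6227 probes, 4061 had 1 symbol in the annotation of the array, 0 had several and 2166 were unnamed, and 125 symbols were updated through the RefSeq table of R64, used only for names and neighbouring genes. Averaging probes of one gene left 6226 genes.

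For this work a linear model with 1 mean per condition was fitted to the 8 arrays with limma 3.58.1 under R 4.3.3 (4 residual and 6.36 prior degrees of freedom). Moderated tests were 2-sided, for 6 comparisons, and the Benjamini-Hochberg adjustment was made over all genes, with a threshold of 0.05. Precision is limited by 2 arrays per condition. The steps were tested on simulated data. The genes and the lists were chosen with earlier results of these data known. All 10 genes were named whatever their values, as were the other genes of mitochondrial DNA and the floor genes. From each nuclear list up to 4 genes with the smallest p past the threshold could be named, and for COX1, COB and ATP6 the 3 named genes with the highest correlation. Alternatives covered the normalization, the scaling, a filter on dim genes, slide and repetition number as blocks, the moderation, array weights, the arrays in the fit, the probe rule, the floor and leaving out each array.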

Additional observations from a re-analysis of the deposited data

Results flagged for a closer look

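For 2 of the 10 genes the test of the interaction in limma found a difference between the yeasts in the effect of zinc. Among all genes 33.6% passed this test. It was 0.49 on the log2 scale for AI5_ALPHA (adjusted p = 0.0078) and 0.52 for COX1 (adjusted p = 0.019). The log2 fold change of AI5_ALPHA with zinc was 0.12 in AhPDF1.1b yeast, where it did not pass the test, and -0.37 in WT yeast. That of COX1 was -0.41 in AhPDF1.1b yeast and -0.93 in WT yeast. All arrays of AhPDF1.1b yeast with zinc lay on slide 1 and all arrays of WT yeast with zinc on slide 2. With slide as a block the difference was 0.61 for AI5_ALPHA (adjusted p = 0.012) and 0.45 for COX1 (adjusted p = 0.12).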

How the results depend on the processing

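Tests of the 10 genes in 6 comparisons under 18 alternatives gave 1016 values, since the filter on dim genes left out 4 of the 10 genes and 2 alternatives were run for only some comparisons. Of these, 955 kept their side of the threshold, 37 lost the call, 24 gained one and 0 reversed a call. Among those 955, 40 changed sign without passing in either case. Slide as a block lowered the number of the 10 genes that passed to 1 for AhPDF1.1b under zinc and to 1 for the interaction, and gave 1755 in place of 3037 genes among all genes for AhPDF1.1b under zinc and 1258 in place of 2095 for the interaction. A fit of only the arrays compared gave 2 genes for zinc in AhPDF1.1b yeast, COX1 and COB. Leaving out 1 array gave 1 to 3 genes for zinc in AhPDF1.1b yeast, 2 to 3 for zinc in WT yeast, 1 to 7 for AhPDF1.1b under zinc, 0 to 0 for AhPDF1.1b on control medium, 1 to 3 for the combined treatment (AhPDF1.1b yeast with zinc against WT yeast on control medium) and 1 to 5 for the interaction. For AhPDF1.1b on control medium the number of all genes that passed, 352, was 94 without repetition 1 and 98 without repetition 2 of the WT control, and 206 without repetition 1 and 220 without repetition 2 of AhPDF1.1b yeast on control medium. A lone array was assumed to vary like the others. The number near the floor was 3 with the 5th percentile of each array and 2 with a margin of 0.5 log2 units. Signal close to the floor limits AI3, AI4 and BI2.

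With the replicate number as a block the numbers of genes that passed were 1 for zinc in AhPDF1.1b yeast, 3 for zinc in WT yeast, 7 for AhPDF1.1b under zinc, 0 on control medium, 2 for the combined treatment and 2 for the interaction, as without it. Arrays of the same number share only that number: their deviations correlated at -0.533 to 0.536 between conditions. Crossing the numbers of AhPDF1.1b yeast with zinc, an alternative chosen after seeing the data, gave 3 genes for zinc in AhPDF1.1b yeast, 7 for AhPDF1.1b under zinc and 3 for the combined treatment. Shares of all genes that passed under these blocks are not given here, so the counts are not set against a background.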
